A study of Mus musculus with 6 samples.

Results

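The T cell receptor complex, its coreceptors and the kinases that act directly on it were examined as 10 genes, taken by symbol: Cd3d, Cd3e, Cd3g, Cd247, Trbc2, Cd4, Cd8a, Cd8b1, Lck and Zap70. All 10 were found among the 49568 gene symbols of the count table, and all 10 were among the 19199 genes that passed the filter on low counts and were tested. RNA came from whole lungs of 4-month-old female mice on a C57BL/6 background, with 3 TNF-Tg lungs, 3 WT lungs and 1 library per mouse. TNF-Tg mice carry a human TNF transgene, whose promoter is not given in the sources used here, and WT mice are their littermates without it. Total counts lay between 25396923 and 32529408 per lung. The table holds mouse genes, so the human transgene has no row of its own. Mouse Tnf had 106, 213 and 405 counts in TNF-Tg lungs against 16, 14 and 35 in WT lungs. Whether reads of the transgene were counted as mouse Tnf was not tested. The labels call the samples primary cells, while lung genes such as Sftpc, a surfactant protein of alveolar type 2 cells, and Ager, a gene of alveolar type 1 cells, were abundant in all 6 libraries. WT replicate 1 carried 56570 counts of Krt4, a keratin of squamous epithelium, against at most 8 in any other lung, and in TNF-Tg replicate 1 a single gene, Gm42418, took 5.22% of the counts. No 2 replicates agreed within counting error (chi-square over its degrees of freedom 53.7 or more for each pair).

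The receptor is a pair of variable chains with no signalling tail of their own. Receptors of alpha and beta chains bind peptide held by MHC molecules, while those of gamma and delta chains mostly recognise other ligands. The CD3 gamma, delta and epsilon chains and the CD3 zeta chain carry the signal inward through tyrosine motifs. Lck, held by the tails of CD4 and CD8, phosphorylates these motifs, and ZAP-70 then docks on them and passes the signal to adaptor proteins. CD4 binds MHC class II and CD8 binds MHC class I. In mice, Cd4 is also known in some macrophages and dendritic cells, Cd8a in a subset of dendritic cells, and Cd247, Lck and Zap70 in natural killer (NK) cells.

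The 3 genes Cd3g, Cd3d and Cd3e lie side by side on chromosome 9 of GRCm38, and their promoters are shown because these neighbouring genes encode the 3 chains that assemble together with the receptor. Cd3g (44969572 to 44980431, minus strand) and Cd3d (44981786 to 44987339, plus strand) are read away from each other from starts 1355 bases apart. Cd3e (44998740 to 45009627, minus strand) starts 27841 bases beyond Cd3d. The windows below run 5′ to 3′ from 250 bases before to 50 bases after the RefSeq transcript start (build GRCm38.p6), at chr9:44980382-44980681 for Cd3g, chr9:44981536-44981835 for Cd3d and chr9:45009562-45009861 for Cd3e. Capitals mark matches, on either strand, to 6 short motifs. These were the core AGGAAG bound by ETS factors, the core TGTGGT bound by RUNX factors, the core AGATAA bound by GATA factors, the E-box CAGGTG, the other common E-box CAGCTG, and the TATA box core TATAAA.
Cd3g: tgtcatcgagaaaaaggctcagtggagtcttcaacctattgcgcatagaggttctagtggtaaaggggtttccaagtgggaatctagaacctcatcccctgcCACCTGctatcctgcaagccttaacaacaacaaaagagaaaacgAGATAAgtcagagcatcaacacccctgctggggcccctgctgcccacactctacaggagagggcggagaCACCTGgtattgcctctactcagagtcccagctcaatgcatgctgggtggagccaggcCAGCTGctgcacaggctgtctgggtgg
Cd3d: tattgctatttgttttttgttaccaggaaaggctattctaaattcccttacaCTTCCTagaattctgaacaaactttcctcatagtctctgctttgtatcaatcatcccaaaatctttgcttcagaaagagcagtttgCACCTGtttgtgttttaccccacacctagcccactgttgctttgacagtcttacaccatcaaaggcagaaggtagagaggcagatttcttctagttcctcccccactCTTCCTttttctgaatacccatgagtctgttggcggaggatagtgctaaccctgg
Cd3e: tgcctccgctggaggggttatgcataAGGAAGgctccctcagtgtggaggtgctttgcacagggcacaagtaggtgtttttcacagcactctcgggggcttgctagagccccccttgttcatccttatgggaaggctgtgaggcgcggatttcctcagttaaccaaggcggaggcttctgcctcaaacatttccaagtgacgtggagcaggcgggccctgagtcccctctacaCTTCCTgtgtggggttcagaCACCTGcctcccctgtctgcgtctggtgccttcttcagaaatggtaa

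The E-box CAGGTG was found in all 3 windows, on the reverse strand as CACCTG each time. Windows were matched for 7 of the 10 genes, and not for Cd4, Cd8b1 and Trbc2. Zap70 had 3 windows, Lck 2 and each other matched gene 1, so the windows are not separate genes. Of the 10 windows of these 7 genes, 8 held CAGGTG, while 20.21% of all 32851 promoter windows of this length held it. The ETS core was found in 7 of the 10 windows, against 35.35% of all windows, and TGTGGT in 2 of 10, against 16.76%. The window of Cd3g held the only AGATAA match among the 10 windows, and lacked AGGAAG, which was present in those of Cd3d and Cd3e. CAGCTG was present in 2 of the 10 windows (16.30% of all) and TATAAA in 0 of the 10 (13.62% of all). These matches describe the letters of each window and are not binding sites.

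The beta chain constant genes are shown because reads from them cannot always be told apart. Trbc2 (chromosome 6 of GRCm38, 41546730 to 41548352, plus strand) shares sequence with Trbc1 (41538218 to 41539881, plus strand), mainly in its first exon. Over the first exon of Trbc2, 375 bases long, the transcripts differ at 1 base, position 260 counted from the start of the exon, after 259 identical bases. The stretch around that base runs 5′ to 3′ from GENCODE M21 transcripts, at chr6:41546949-41547029 for Trbc2, with the differing base in capitals.
Trbc1: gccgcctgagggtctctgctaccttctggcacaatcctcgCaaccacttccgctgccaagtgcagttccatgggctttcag
Trbc2: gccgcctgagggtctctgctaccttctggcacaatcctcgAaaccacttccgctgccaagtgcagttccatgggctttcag

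Of all 100-base windows of the Trbc2 transcripts, 30.86% also occur in Trbc1, so the beta constant genes are uncertain as separate genes. Of those of Cd247, 51.39% occur in another gene, chiefly Pou2f1, which lies over the end of Cd247 on the opposite strand. Pou2f1 had 763 to 903 normalized counts in TNF-Tg lungs and 524 to 847 in WT lungs. Whether reads were counted by strand is not given in the sources used here, so part of the Cd247 counts may belong to Pou2f1. For Cd3e the shared windows were 0.93%, with the antisense gene Gm48719, and for the other 7 genes none were shared.

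The comparison asked whether these genes differed between TNF-Tg and WT lungs. Of the 10 genes, 8 rose in TNF-Tg lungs and none fell, with an adjusted p below 0.05 in edgeR's quasi-likelihood test, Benjamini-Hochberg adjusted over all genes tested. Of all genes tested, 24.0% rose, 23.4% fell and 47.4% changed in either direction. The count of 8 fell to 5 when any 1 lung other than WT replicate 3 was left out, and was 9 without WT replicate 3. Cd3e and Zap70 did not pass. The median log2 fold change of the 10 genes was 0.84, and without Cd4 0.82, against 0.03 over all genes tested. The groups did not overlap in 8 of the 10 genes, against 58.7% of all genes tested, or 30.5% counting those higher in TNF-Tg lungs. Cd4 stood apart from the rest, with a log2 fold change of 4.84, while the other 7 genes that rose lay between 0.63 and 1.13. Whole lung RNA cannot tell more cells of a type from more RNA in each cell.

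**Figure D1:**
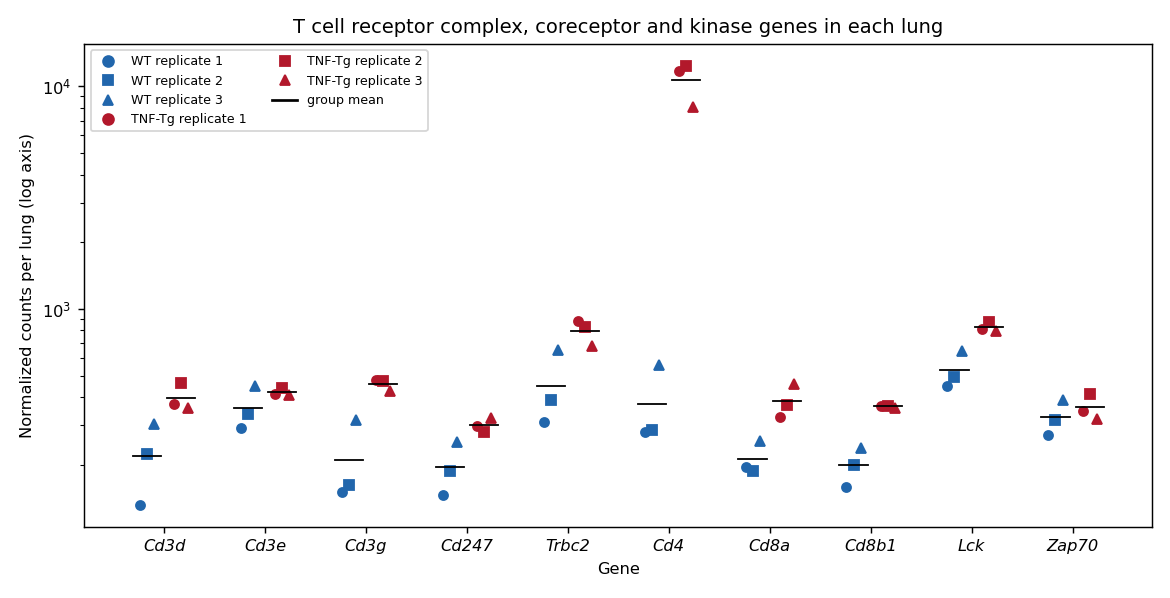
Normalized counts (counts scaled to the mean TMM-adjusted library size, log axis) of the 10 genes in each lung, with WT in blue, TNF-Tg in red, symbols for replicates and bars for group means (n = 3). Cd4 in TNF-Tg lungs lies between 8082 and 12313 and far above every other point, and WT replicate 3 is the highest WT lung for all 10 genes.

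The WT lungs differed among themselves in the same order for nearly every gene. WT replicate 3 was the highest WT lung for 10 of the 10 genes, at 1.32 to 2.03 times the mean of the other WT lungs, and WT replicate 1 was the lowest for 9 of 10. The summed normalized counts of 8 B cell markers followed the same order, with 5046 in WT replicate 1, 6519 in replicate 2 and 8523 in replicate 3. Those of 8 macrophage and monocyte markers were 12017, 12421 and 13488. Among these markers Cd68, C1qb, Itgam and Marco each followed the order, while Csf1r and Mertk were lowest in WT replicate 3. The sums of 12 NK cell markers did not follow it, with 3720, 4428 and 4279. They come mostly from Fcer1g (1335, 1406 and 1775) and Tyrobp (1001, 1352 and 1360), which are also used by myeloid cells and did follow it. The SD of normalized counts among TNF-Tg lungs was below that among WT lungs for every gene but Cd4 and Cd8a. The plot of counts by lung has a log axis, on which Cd4 spreads more among WT lungs.

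Among the CD3 chains, Cd3g and Cd3d rose and Cd3e did not pass the test. Cd3g, the gamma chain, had 479, 473 and 428 normalized counts in TNF-Tg lungs and 151, 162 and 317 in WT lungs. Every TNF-Tg lung lay above every WT lung, and the log2 fold change was 1.13 (SE 0.27, edgeR adjusted p = 0.0105). Cd3d, the delta chain, had 374, 462 and 361 in TNF-Tg lungs and 132, 222 and 303 in WT lungs. The groups again did not overlap (log2 fold change 0.86, SE 0.28, edgeR adjusted p = 0.0326). Cd3e, the epsilon chain that pairs with the gamma and delta chains, had 415, 443 and 409 in TNF-Tg lungs and 290.5, 337 and 449 in WT lungs. WT replicate 3 lay above every TNF-Tg lung for this gene. The log2 fold change of Cd3e was 0.23 with a 95% confidence interval of -0.16 to 0.63 (edgeR adjusted p = 0.291). Without WT replicate 3, Cd3e passed the threshold, with a log2 fold change of 0.42 (edgeR adjusted p = 0.0370). Cd3d lost its call when any 1 of the other 5 lungs was left out, with adjusted p up to 0.106, and Cd3g kept it in all 6 such fits.

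Cd247 encodes CD3 zeta, the chain with the most signalling motifs (chromosome 1, 165788681 to 165877277). It had 298, 281 and 324 normalized counts in TNF-Tg lungs and 145, 188 and 251 in WT lungs, with no overlap. The log2 fold change was 0.63 (SE 0.21, edgeR adjusted p = 0.0370). The call was lost without any 1 of the lungs other than WT replicate 3 (adjusted p up to 0.129) and with total counts in place of TMM scaling (adjusted p = 0.0693).

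Trbc2, a constant gene of the beta chain, had 886, 825 and 682 normalized counts in TNF-Tg lungs and 309.6, 388 and 655 in WT lungs. The lowest TNF-Tg lung and the highest WT lung nearly met. The log2 fold change was 0.82 (SE 0.26, edgeR adjusted p = 0.0311), and the call was lost without any 1 of the lungs other than WT replicate 3 (adjusted p up to 0.105). Trac, the constant gene of the alpha chain (chromosome 14, 54220521 to 54224206), rose by a log2 fold change of 1.16 (SE 0.26, edgeR adjusted p = 0.00678). Its normalized counts were 820.1, 871 and 626 in TNF-Tg lungs and 246, 299.98 and 491 in WT lungs. Of the 7 receptor constant genes tested, 4 rose and none fell, and 2 rose without replicate 1 of both genotypes. Trbc1 had a log2 fold change of 0.69 (edgeR adjusted p = 0.0529), and passed with DESeq2 (adjusted p = 0.0195) and without WT replicate 3 (edgeR adjusted p = 0.0112). The gamma chain genes Tcrg-C2 and Tcrg-C4 rose by log2 fold changes of 1.16 and 1.22 (edgeR adjusted p = 0.0120 and 0.0111), and Tcrg-C1 had 0.79 (edgeR adjusted p = 0.0597), which passed without WT replicate 3 (edgeR adjusted p = 0.0390). Trdc, the delta chain gene, had a log2 fold change of 0.04 with a 95% confidence interval of -0.47 to 0.55 (edgeR adjusted p = 0.893). Its sign turned without TNF-Tg replicate 3 and without WT replicate 1. Of the 100-base windows of Trdc, 2.87% also occur in Trdv5, which overlaps it on the opposite strand.

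**Figure D2:**
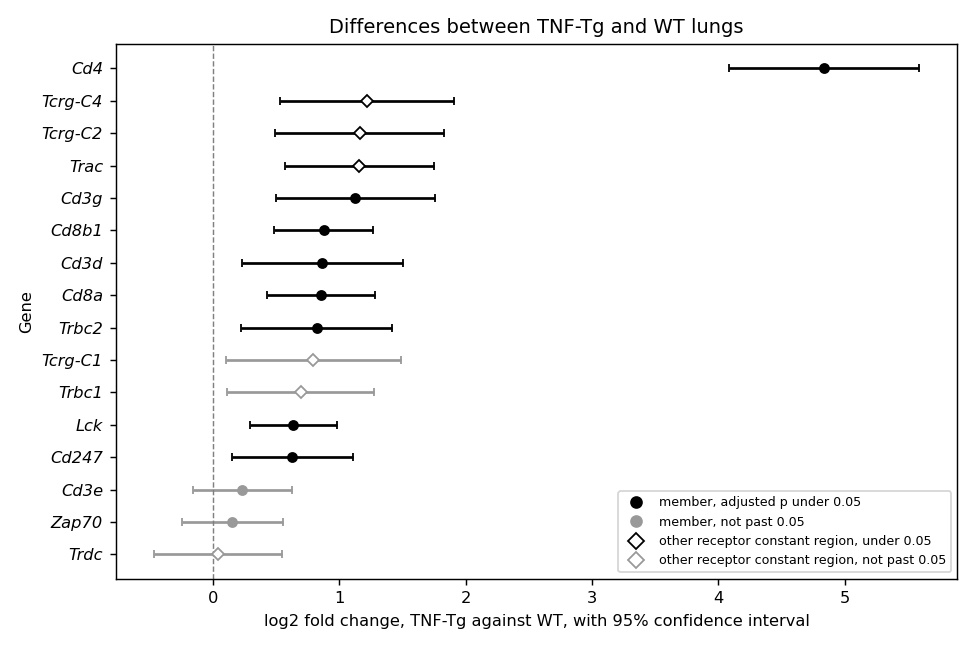
Log2 fold changes of the 10 genes (circles) and of the other receptor constant genes (diamonds), TNF-Tg against WT, with 95% confidence intervals from edgeR's quasi-likelihood fit (n = 3 per group). Black marks genes with an adjusted p below 0.05, and Cd4 at 4.84 lies clear of all the others, which reach at most 1.22.

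Of the coreceptors, Cd4 (chromosome 6, 124864692 to 124888221, minus strand) had 11703, 12313 and 8082 normalized counts in TNF-Tg lungs and 279, 287 and 557 in WT lungs. The lowest TNF-Tg lung was many times the highest WT lung, and the fitted ratio was 28.6-fold (log2 fold change 4.84, SE 0.33, edgeR adjusted p = 2.15e-05). By p-value Cd4 ranked 321 of the 19199 genes. It took 66.2% to 73.2% of all counts on the 10 genes in TNF-Tg lungs and 10.3% to 13.7% in WT lungs. Its call held in all 15 alternative fits, with log2 fold changes from 4.55 to 5.23.

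The CD8 chains rose far less. Cd8a, the alpha chain (chromosome 6, 71373427 to 71379173), had 326, 370.2 and 458 normalized counts in TNF-Tg lungs and 195, 188 and 255 in WT lungs. Cd8b1, the beta chain that marks conventional CD8 T cells (chromosome 6, 71322788 to 71337494), had 368, 368 and 358 in TNF-Tg lungs and 159, 198 and 238 in WT lungs. Neither gene's groups overlapped. The log2 fold changes were 0.86 for Cd8a (SE 0.19, edgeR adjusted p = 0.00621) and 0.88 for Cd8b1 (SE 0.17, edgeR adjusted p = 0.00361). Both kept their call with any 1 lung left out.

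Of the kinases, Lck rose and Zap70 did not pass the test, and the difference between them was not tested. Lck (chromosome 4, 129548344 to 129573641, minus strand), the kinase that opens receptor signalling, had 809.6, 874 and 793 normalized counts in TNF-Tg lungs and 448, 495 and 649 in WT lungs. Every TNF-Tg lung was above every WT lung, with a log2 fold change of 0.64 (SE 0.15, edgeR adjusted p = 0.00906) that kept its call with any 1 lung left out. Zap70 (chromosome 1, 36761798 to 36782818), the kinase that docks on the phosphorylated CD3 chains, had 349, 417 and 320.0 in TNF-Tg lungs and 271, 316 and 389 in WT lungs. The genotypes overlapped for Zap70, whose log2 fold change of 0.15 had a 95% confidence interval of -0.25 to 0.55 (edgeR adjusted p = 0.498).

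When TNF-Tg replicate 1 and WT replicate 1 were both left out, a choice made after the data were seen, 3 of the 10 genes kept their call: Cd4, Cd8a and Cd8b1. Cd3g and Lck then had adjusted p-values of 0.0605 and 0.0698 by edgeR.

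Levels were compared between genes per length, as RPKM (CPM on TMM-scaled totals, per kilobase of exon). In WT lungs Trbc2 was the highest of the 10 at 21.6 ± 8.65 RPKM (SD, n = 3), followed by Lck at 5.996 ± 1.18 and Cd8b1 at 4.43 ± 0.887. Cd4 was sixth at 3.07 ± 1.30, and Cd247 was the lowest at 1.21 ± 0.332. From Lck down to Cd8a, each gene's range over the WT lungs overlapped that of the next, so their order in WT lungs is not fixed beyond the spread between mice. In TNF-Tg lungs Cd4 was the highest at 87.8 ± 18.8 RPKM, above Trbc2 at 38.1 ± 5.02 and Lck at 9.32 ± 0.483, with no overlap between these neighbours. The other genes lay between 8.13 ± 0.132 RPKM for Cd8b1 and 1.87 ± 0.133 for Cd247. Per length, Cd4 stood at 1.29, 1.38 and 1.97 times Cd8a in WT lungs, and at 32.4, 30.0 and 15.9 times Cd8a in TNF-Tg lungs. Against the mean of the 3 CD3 genes, Cd4 stood at 0.837 to 1.11 in WT lungs and 13.996 to 19.2 in TNF-Tg lungs.

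Ratios of 2 genes within a lung were compared to see which of them moved apart. For 9 pairs, the log2 ratio was compared between the genotypes with a two-sided exact permutation test, in which 3 lungs against 3 cannot go below p = 0.1. None of the pairs could therefore reach 0.05, and the lowest adjusted p over the 9 pairs was 0.15. Cd4 over Cd8a had log2 ratios of 5.16, 5.05 and 4.14 in TNF-Tg lungs and 0.51, 0.60 and 1.12 in WT lungs, a difference of 4.03 with no overlap (exact p = 0.1). Cd8b1 over Cd8a had 0.17, -0.01 and -0.35 in TNF-Tg lungs and -0.29, 0.08 and -0.10 in WT lungs. This difference of 0.04 was smaller than the spread between lungs (exact p = 0.8), and its sign turned without TNF-Tg replicate 1 and without WT replicate 1.

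Against Cd3e, the gene that moved least among the CD3 chains, Lck had the ratio with the smallest spread. Its log2 ratio was 0.96, 0.98 and 0.95 in TNF-Tg lungs and 0.62, 0.55 and 0.53 in WT lungs, a difference of 0.40 with no overlap (exact p = 0.1). Cd8b1 over Cd3e was -0.21 ± 0.05 (SD, n = 3) in TNF-Tg lungs and -0.84 ± 0.08 in WT lungs (exact p = 0.1). Cd247 over Cd3e and Trbc2 over Cd3e were also higher in every TNF-Tg lung, by 0.40 and 0.63 (exact p = 0.1 for each). Zap70 over Cd3e was -0.23 ± 0.13 in TNF-Tg lungs and -0.13 ± 0.06 in WT lungs, and the groups overlapped (exact p = 0.4). Trbc1 over Trbc2 also overlapped, with -0.62 ± 0.03 against -0.48 ± 0.17 (exact p = 0.2). Of the 9 pairs, 6 share Cd3e, and all rest on the same 6 lungs, so they are not independent.

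**Figure D3:**
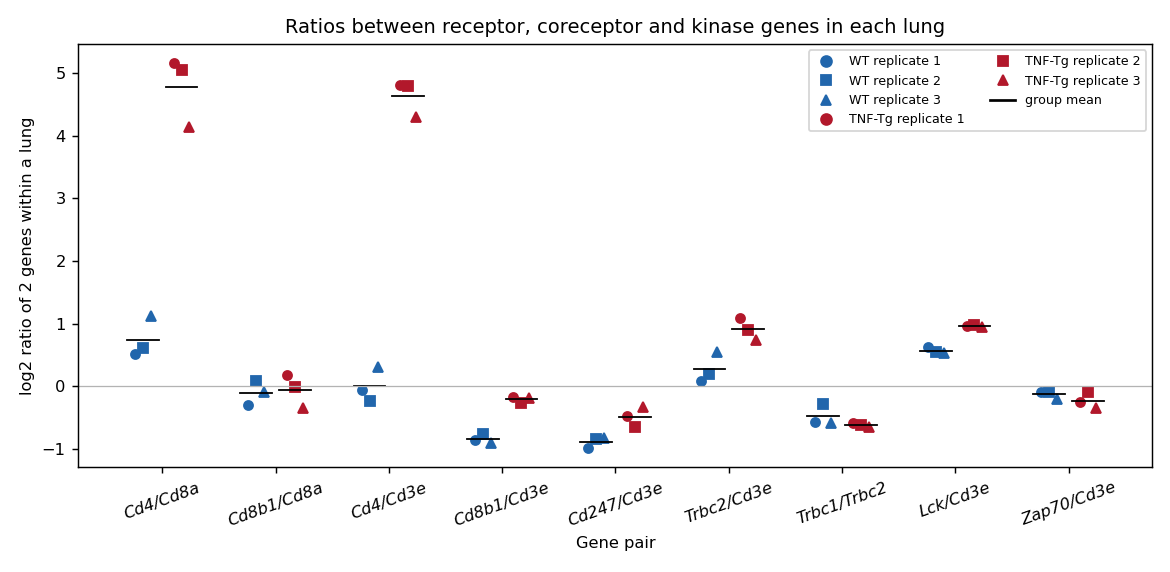
Log2 ratios of 9 gene pairs within each lung (log2 CPM of the first gene minus that of the second, prior count 2), with WT in blue, TNF-Tg in red and bars for group means (n = 3). Cd4 over Cd8a and Cd4 over Cd3e differ by more than 4 between the genotypes, while Cd8b1 over Cd8a, Trbc1 over Trbc2 and Zap70 over Cd3e overlap.

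Markers of other cell types that express some of these genes were read beside them. Macrophage and monocyte markers were higher in the same lungs as Cd4. All 8 of them rose in TNF-Tg lungs, none was at 0 in any lung, and their summed normalized counts ranged from 145604 to 214226 in TNF-Tg lungs and from 12017 to 13488 in WT lungs. C1qa, a subunit of complement C1q made by macrophages, had a log2 fold change of 4.27, C1qb 4.27, Cd68 3.33, Adgre1 (F4/80) 3.20, Csf1r 2.66, Itgam 2.64, Mertk 0.49 and Marco, a scavenger receptor of alveolar macrophages, 7.10. These changes ranged on both sides of the 4.84 of Cd4, and that of Mertk lay among those of the T cell receptor genes. Within a lung, the log2 ratio of Cd4 to C1qa was -1.48, -1.34 and -1.58 in TNF-Tg lungs and -2.29, -2.18 and -1.74 in WT lungs, a difference of 0.60. The difference was 0.59 for Cd4 over C1qb, 1.57 over Cd68, 1.69 over Adgre1, 2.23 over Csf1r, 2.24 over Itgam, 4.41 over Mertk and -2.36 over Marco, and it was 4.63 for Cd4 over Cd3e. The pairs with macrophage genes were chosen after the values were seen, and the part of macrophages in the rise of Cd4 was not tested. Mertk lost its call when any 1 lung but TNF-Tg replicate 3 was left out, with adjusted p up to 0.0610 by edgeR.

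Dendritic cells can carry Cd8a and Cd4. Of 6 markers of conventional dendritic cells 1, 2 rose and 1 fell, with summed normalized counts of 6700 to 7096 in TNF-Tg lungs and 5991 to 6807 in WT lungs. Xcr1, Clec9a and Naaa did not pass, with log2 fold changes of 0.46, -0.36 and 0.23. Of 6 markers of plasmacytoid dendritic cells, 4 rose and 1 fell, with sums of 6932 to 8306 against 4034 to 5078. Most of these sums came from Tcf4 and Bst2, and Siglech did not pass (log2 fold change 0.47, edgeR adjusted p = 0.241). The gene that fell, Klk1, had 8, 5 and 12 counts in TNF-Tg lungs and 34, 13 and 42 in WT lungs, and passed the count filter only through the WT lungs. Without WT replicate 3, 5 of the first list passed, 4 of them higher. Of the second, 3 passed, all higher, without TNF-Tg replicate 1, TNF-Tg replicate 3 or WT replicate 1. No marker of either list was at 0 in a lung. Their part in the coreceptor levels was not tested.

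Of 12 NK cell markers, 9 fell, 2 rose and 1, Klrb1c, did not pass. With a minimum of 10 counts in every lung, 4 of them fell and 2 rose. Gzma, a granule protease of NK and cytotoxic T cells, had 56.7, 47.6 and 86.8 normalized counts in TNF-Tg lungs and 596, 786 and 529 in WT lungs (log2 fold change -3.31, SE 0.26, edgeR adjusted p = 4.16e-05). The natural cytotoxicity receptor gene Ncr1 had a log2 fold change of -2.22 and the perforin gene Prf1 -1.23. Klri2 had -0.87. Of the other receptor genes that fell, Klra4 had 3 to 5 counts in TNF-Tg lungs and 30 to 50 in WT lungs, Klre1 2 to 16 against 35 to 80, Klra7 5 to 18 against 24 to 35, Klra8 6 to 17 against 64 to 94 and Klra9 7 to 13 against 48 to 54. These 5 passed the count filter only through the WT lungs, so their folds are not given. The 2 markers that rose, Fcer1g (2.59) and Tyrobp (2.85), encode adaptors also used by myeloid cells, and they dominate the summed counts of the list. None of the 12 was at 0 in any lung. Zap70, Cd247 and Lck are shared between T and NK cells, and the part of NK cells in their levels was not tested. Klra7 and Klri2 lost their calls without TNF-Tg replicate 1 or 2 or WT replicate 1, Klra7 also without WT replicate 2, with adjusted p up to 0.0865 by edgeR. Both lost them with DESeq2 (adjusted p = 0.0507 and 0.0550), which left 7 of the 9 falls, and Klri2 without the filter on low counts (adjusted p = 0.0516 by edgeR).

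**Figure D4:**
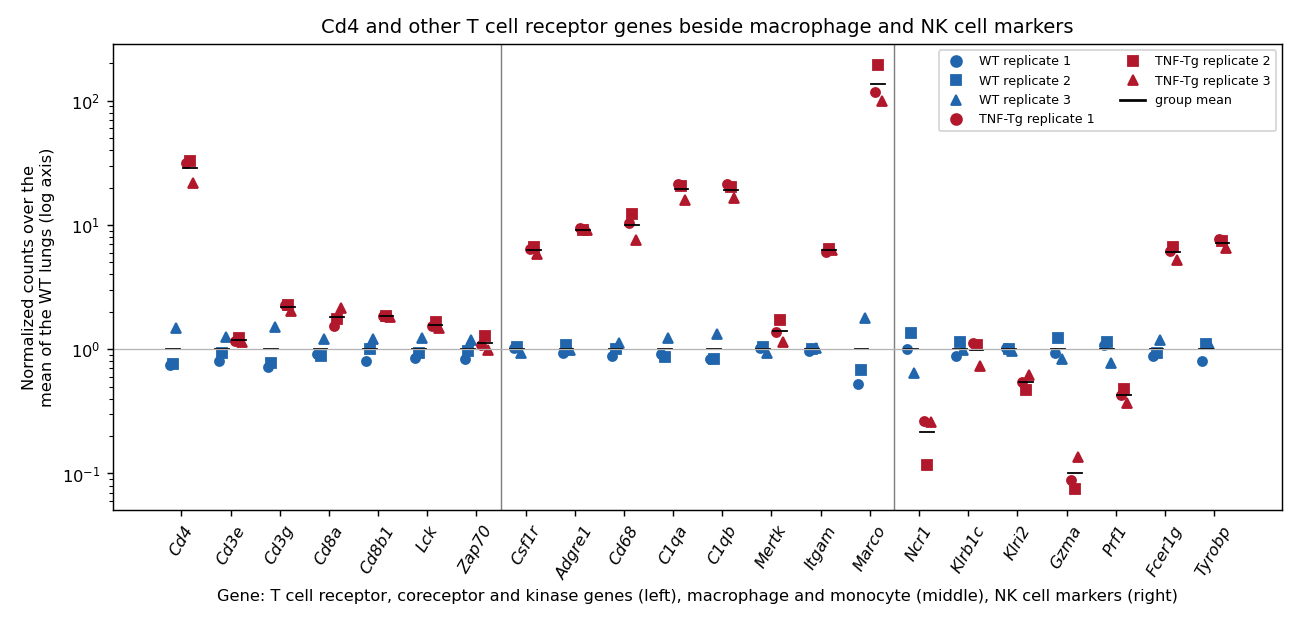
Normalized counts of 7 of the 10 genes, 8 macrophage and monocyte markers and the 7 NK cell markers with at least 10 counts in every lung, divided by the mean of the WT lungs (log axis), with WT in blue, TNF-Tg in red and bars for group means. Among the macrophage and monocyte markers, Marco lies above Cd4 in TNF-Tg lungs and Mertk lies near the T cell receptor genes other than Cd4, and 4 of the NK cell markers shown (Ncr1, Klri2, Gzma and Prf1) lie below 1 in all TNF-Tg lungs.

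Immature thymocyte genes were read because the thymus lies beside the lungs. Rag1 and Rag2, which cut receptor genes during T cell development, had at most 9 counts in any lung, and Ptcra, the surrogate alpha chain of thymocytes, at most 3. Rag1 was at 0 in all TNF-Tg lungs and in WT replicate 3, and Ptcra was at 0 in 3 lungs, where 3 counts correspond to 0.0922 to 0.118 CPM by library. Of the 8 thymocyte genes listed, 3 could be tested, of which Themis and Cd1d1 rose. That count of 2 went to 0 without TNF-Tg replicate 2 or WT replicate 1, and to 1 without TNF-Tg replicate 3 or WT replicate 2 and with total counts only. Of 6 thymic epithelium genes, Foxn1 and Psmb11, which define that tissue, had at most 13 and at most 2 counts and stood at 0 in some lungs, while 3 of the 4 tested genes of the list were called higher. Of these, Prss16 (8, 6 and 19 counts in WT lungs) passed the count filter through the TNF-Tg lungs, where it had 19, 35 and 35 counts. Aire had 8, 31 and 29 counts in TNF-Tg lungs and 2, 12 and 8 in WT lungs, and its groups overlapped. Without TNF-Tg replicate 2, WT replicate 1 or WT replicate 2, and with at least 10 counts in every lung, 1 rose. The summed normalized counts of that list were 660 to 1135 in TNF-Tg lungs and 530.5 to 548 in WT lungs, mostly from Ly75, which dendritic cells share. The part of thymic tissue in the levels of the 10 genes was not tested.

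Downstream of the receptor, 11 of the 20 tested genes of proximal signalling rose and 3 fell, and the list's median log2 fold change was 0.90. The adaptor genes Fyb and Lcp2 (SLP-76) and the exchange factor gene Vav1 rose most, by log2 fold changes of 2.32, 2.26 and 2.13 (SEs 0.12, 0.11 and 0.12). All 3 are also known in myeloid cells. The membrane adaptor gene Lat had 0.36 (edgeR adjusted p = 0.228), and Themis, a regulator of receptor signalling, had 0.89 (edgeR adjusted p = 0.0184). Plcg1, a phospholipase of receptor signalling, fell by 0.66 on the log2 scale and Prkcq, the kinase PKC theta, by 0.65. The kinase gene Fyn fell by 0.38 (edgeR adjusted p = 0.0191), a call lost without TNF-Tg replicate 1 or 2 or WT replicate 1 or 2 (adjusted p up to 0.0654). Plcg1 and Fyn are also expressed outside the T lineage, genes of the lung tissue list fell in the same lungs (5 of 6), and the part of other lung cells in these falls was not tested.

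Of the 18 genes that restrain receptor signalling, 13 rose and 1 fell, and the list's median log2 fold change was 0.87. Some of them, such as Ptpn6, Dok2 and Sla, are also known in myeloid cells, whose markers rose in the same lungs, and the part of those cells was not tested. The phosphatase gene Ptpn22 rose by 1.96, and the adaptor genes Dok2 and Lax1 by 1.92 and 1.91 (edgeR adjusted p = 0.000822, 1.46e-05 and 0.000682). Dgka, a lipid kinase gene, fell by 0.37 on the log2 scale (edgeR adjusted p = 0.0325), a call that held only without WT replicate 1 among the fits that left out 1 lung (adjusted p up to 0.0881).

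Of 16 costimulatory and adhesion genes of the T cell surface, 10 rose and none fell, with a median log2 fold change of 1.14. Ly9 and Tnfrsf9 (4-1BB) rose by 3.01 and 3.00 (SE 0.25 each). Both are also known outside T cells, in B cells or myeloid cells, some of whose markers rose in the same lungs, and the part of those cells was not tested. The checkpoint receptor gene Ctla4 rose by 2.73 (SE 0.80, edgeR adjusted p = 0.0233), but it lost the call without TNF-Tg replicate 1, WT replicate 1 or WT replicate 2, where its log2 fold change went down to 1.58 (adjusted p up to 0.0905), and with limma-voom (adjusted p = 0.0514). The count of 10 fell to 6 without TNF-Tg replicate 1 or 2, and to 5 without WT replicate 1 or 2. Cd2, a pan-T adhesion gene, had 0.16 (edgeR adjusted p = 0.626) and Thy1 0.40 (edgeR adjusted p = 0.112).

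Of 17 T lineage transcription factors, 6 rose and 4 fell, and the median log2 fold change was -0.04. Over all genes tested 24.0% rose and 23.4% fell, so the share of falls in this list was near that of all genes. The falls in the list went down to 1 without WT replicate 2 and to 2 without TNF-Tg replicate 2 or 3, while 6 or 7 rose in each fit that left out 1 lung. Foxp3, the factor of regulatory T cells, rose by 2.06 (SE 0.46, edgeR adjusted p = 0.00710), Ikzf1 (Ikaros) by 1.36 and Eomes by 1.16. Lef1, a factor of naive T cells, fell by 1.11 on the log2 scale (SE 0.17, edgeR adjusted p = 0.00116), Satb1 by 0.47 and Tcf7 by 0.32. Satb1 lost its call without TNF-Tg replicate 2 or 3 or WT replicate 2, and Tcf7 without TNF-Tg replicate 1 or 3 or WT replicate 2, with adjusted p up to 0.0877 and 0.121 by edgeR. Bcl11b, which holds T cell identity, had 0.54 (edgeR adjusted p = 0.0576). Mean log2 CPM was 5.67 for Ikzf1 and 5.31 for Tcf7, against 3.84 for Satb1, 2.61 for Lef1 and 3.70 for Cd3e. Genes of the lung tissue list fell (5 of 6) and pan-leukocyte genes rose (6 of 6) in the same lungs. The part of cells other than T cells in the levels of these factors was not tested.

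Of 14 homing and memory genes, 7 rose and 5 fell, against 24.0% and 23.4% of all genes tested. Only 3 fell without TNF-Tg replicate 1 or 2 or WT replicate 2 or 3. Among the chemokine receptor genes that rose were Cxcr3 and Ccr6, with log2 fold changes of 1.51 and 1.15 (edgeR adjusted p = 0.00129 and 0.00489). The factor gene Klf2 fell by 1.31 on the log2 scale and its target S1pr1, the receptor that guides cells out of tissue, by 0.94, and both are also known in endothelium. The endothelial genes Cdh5 and Pecam1 fell by 1.17 and 0.56, within a lung tissue list of which 5 of 6 genes fell, and the part of endothelium in Klf2 and S1pr1 was not tested. Itgae, the integrin CD103 of resident T cells and some dendritic cells, fell by 0.72 (edgeR adjusted p = 0.0199), a call lost without TNF-Tg replicate 1 (adjusted p = 0.0511). Of 12 effector cytokine genes, 4 passed the count filter and 2 of these, Il10 and Tnfsf11 (RANKL), were called higher. Il10 had 103, 37 and 83 counts in TNF-Tg lungs and 2, 0 and 5 in WT lungs, and Tnfsf11 had 23, 29 and 15 against 3, 3 and 4. Both passed the filter only through the TNF-Tg lungs, so their folds are not given. With at least 10 counts in every lung, 0 genes of the list were called. Macrophage and plasma cell markers rose in the same lungs, and the part of cells other than T cells in Il10 and Tnfsf11 was not tested.

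All 6 of the MHC genes read here, the ligands of the coreceptors, rose, with H2-Eb1, H2-Aa and H2-Ab1, the class II genes that CD4 contacts, at log2 fold changes of 1.67, 1.42 and 1.35 (edgeR adjusted p = 4.01e-05, 0.000102 and 0.000625). The class I genes that CD8 contacts were next, at 1.14 for H2-K1, 1.12 for B2m and 0.88 for H2-D1. All 6 pan-leukocyte genes rose too, with a median log2 fold change of 1.54, a larger median than the 0.82 of the T cell receptor genes other than Cd4. Of 8 B cell markers, 4 rose (median 0.62), and of 6 plasma cell markers, 5 rose (median 1.93). Without replicate 1 of both genotypes these counts were 2 and 3.

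**Figure D5:**
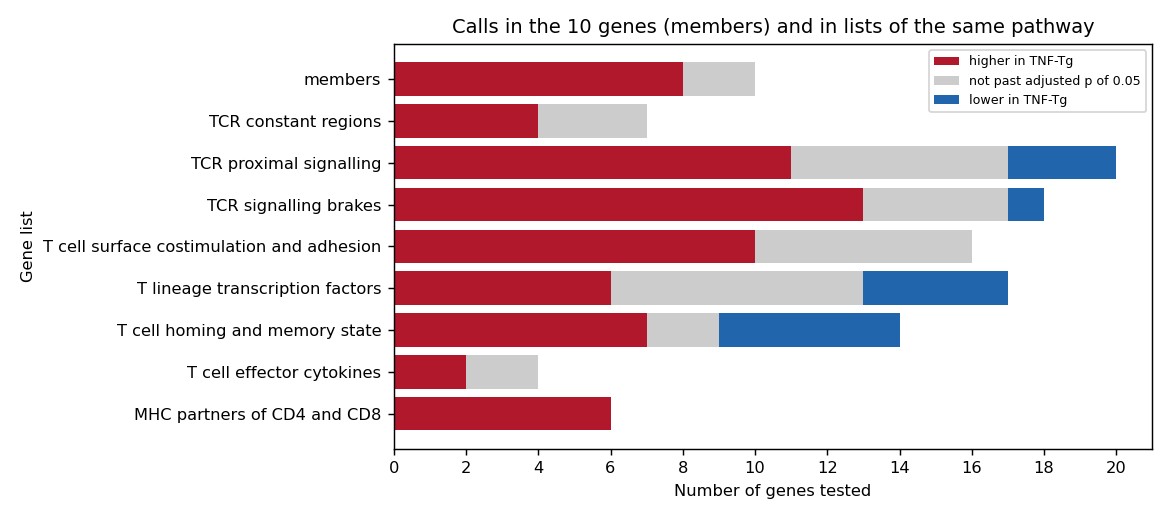
Number of tested genes that were higher (red), lower (blue) or not past an adjusted p of 0.05 (grey) in TNF-Tg lungs, for the 10 genes (top bar, labelled members) and for 8 lists of the same pathway. Falls appear in the signalling, brake, transcription factor and homing lists, and the lists of costimulation and of MHC genes hold none.

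The genes whose levels followed the CD3 chains most closely were found by Pearson correlation, over the 6 lungs, with the mean log2 CPM of Cd3d, Cd3e and Cd3g. Among 8 genes at the top outside all lists were the immunoglobulin variable genes Ighv1-15 (r = 0.998), Ighv5-16 (r = 0.995) and Ighv1-54 (r = 0.994) and the lymphocyte GTPase gene Gimap3 (r = 0.995). The other 4 were Gfer, Ciapin1, Podnl1 and Mblac1, with r of at least 0.994. Ighv1-15 had 427, 585 and 333 normalized counts in TNF-Tg lungs and 4.78, 16.3 and 143 in WT lungs, so that WT replicate 3 again stood above the other WT lungs. By deviations from the group means, the 8 closest were Ppil6, Slamf8, Smdt1, Lcn2, Ighv1-15, Fcho1, Rnf181 and Igkv3-10, and Ighv1-15 alone was in both sets. With total counts in place of TMM scaling, r by deviations was 0.958 for Smdt1, 0.978 for Ighv1-15, 0.889 for Rnf181 and 0.959 for Igkv3-10, and r by levels was 0.947 for Ciapin1, so these places depend on the scaling. These correlations rest on 6 libraries in 2 groups and are a description of these lungs.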

How the data were processed

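The authors prepared stranded poly(A) libraries from lung RNA, trimmed reads with Trimmomatic and mapped them to GRCm38 with STAR (version 2.5.2b). Per the labels, the build was GRCm38.p5 and featureCounts was among the tools. The authors deposited raw counts of reads per gene symbol, without normalization. Gene annotation and strand setting are not given in the sources used here.

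All 6 columns entered a single edgeR fit (release 4.0.16 in R 4.3.3) after filterByExpr and TMM scaling. Genotype alone was modelled, and quasi-likelihood p-values were adjusted by the Benjamini-Hochberg method and called at 0.05. Standard errors are the log2 fold change over the square root of F. Normalized counts are counts over the TMM-scaled total, times its mean. Log2 CPM used a prior count of 2. Positions and exon lengths are from GENCODE M21, and promoters from RefSeq. Depth set the smallest level read, 3 counts, at 0.0922 to 0.118 CPM, which covers counting error only. Scripts were tested on simulated data.

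Each group's 3 lungs are different mice, and same-numbered mice are not from a stated common litter. Members and lists were chosen with earlier results of these data known. Named were the 10 members, all tested receptor constant genes, up to 3 called genes per direction with the largest change and a mean log2 CPM of at least 0 per pathway list, marker genes beside a result, and the 8 genes closest to the CD3 profile by either measure. Others, among them Lat, Themis, Cd2, Thy1, Bcl11b, Tnfsf11, Krt4 and the class I genes, were chosen after their values were seen. Alternatives were DESeq2 (version 1.42.0), limma-voom (limma version 3.58.1), 2 other scalings, 2 other count filters, a replicate block, omission of each lung in turn, omission of both replicates 1 (added after the data were seen), and a minimum log2 fold change of 1. Results of some genes that the naming rule covers are not reported here.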

Additional observations from a re-analysis of the deposited data

How the results depend on the processing

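The number of the 10 genes called was 8 with DESeq2, limma-voom, DESeq2's size factors and both other count filters, and 7 with total counts only and with the replicate block. With 1 lung left out it ranged from 5 to 9, without replicate 1 of both genotypes it was 3, and it was 2 at a minimum log2 fold change of 1. That minimum left 4320 of the 9096 genes called and 47 of the 79 called pathway genes. With 1 lung left out, between 7347 and 9164 genes were called. With lungs left out, Trdc ranged from -0.13 to 0.13 and Klrb1c from -0.28 to 0.12 in log2 fold change, and the log2 ratio difference of Cd8b1 over Cd8a from -0.076 to 0.19. Without replicate 1 of both genotypes Trdc was at -0.06. Log2 fold changes of the 10 genes kept their sign in all 15 alternatives. Same-numbered mice did not deviate together (correlations across genes of -0.15, -0.00 and -0.24), so the replicate block rests on shared numbers only. With the block 7686 genes were called, Trbc2, Fyn, Ctla4, Satb1, Klra7 and Klri2 lost their calls (adjusted p = 0.0510, 0.0576, 0.0991, 0.0502, 0.0690 and 0.0549 by edgeR), Tcrg-C1 gained one (0.0459), and 6 costimulatory and adhesion genes were called in place of 10. An exact test of the ratios over the same-numbered pairs cannot go below p = 0.25. Apart from Cd4, the 10 genes had between 138 and 845 raw counts in a lung, which adds counting error to the spread between mice.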
